A study of Drosophila melanogaster with 6 samples.

Results

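The genes of DNA replication and of entry into S phase were examined in the adult midgut of Drosophila melanogaster. Members were 35 genes listed by symbol, and 34 of them had a row under that symbol among the 14026 genes of the deposited table. The listed lat carries no row under that name. Its RefSeq synonym Orc3 does, and is described beside the other origin genes without being counted. All 34 members were tested in every comparison.

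Total RNA of adult midguts from wild type flies of the Oregon-R strain was made into 6 libraries in 3 groups of 2. Flies of 4 to 5 days had sucrose (Mock day 0) or a treatment labelled Pe (Pe day 0), an abbreviation that the labels leave unexplained. Flies of 7 to 8 days formed Pe day 3, for which the labels name no sucrose group of the same age, so treatment, day and age cannot be told apart there. The series was designed around the start and the end of midgut regeneration. The deposited table gives, for each gene, a mean over all libraries and the authors' 2 comparisons with Mock. Its header names no groups, and the first comparison was read as Pe day 0 and the second as Pe day 3 from the order of groups in the table's title.

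Before S phase, the origin recognition complex, Cdc6 and Dup (the fly Cdt1) load the Mcm2-7 helicase onto DNA, and Geminin holds Dup back. Cyclin E with Cdk2, under the transcription factor E2f1/Dp, then starts synthesis, in which GINS and Mcm10 activate the helicase, RPA coats single strands, and the RFC complex loads the PCNA clamp. Ribonucleotide reductase makes the deoxynucleotides. In the adult midgut both the dividing stem cells and the enterocytes that become polyploid pass through S phase.

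Most of these genes rose at Pe day 0 and stood near Mock again at Pe day 3. The authors' deposited table called 25 of 34 members at Pe day 0 at an adjusted p under 0.05, 23 higher and 2 lower. Of all 10393 genes tested there it called 46.6%, with 23.0% higher and 23.6% lower. The higher members made up 67.6%, and 18 of them rose at least 2-fold. The share of all tested genes past that fold was not computed. The median log2 fold change was 1.07 over the 34 members and 0.03 over all tested genes. The authors' deposited table had 2 members higher and 0 lower at Pe day 3, where it called 17.7% of 8316 genes (8.75% higher and 8.92% lower). Between Pe day 0 and Pe day 3 the derived Wald test called 20 members lower and 1 higher, where 52.7% of all genes were called (25.3% lower and 27.4% higher). Estimated levels at Pe day 3 lay between Mock and Pe day 0 in 24 of 34 members.

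**Figure D1:**
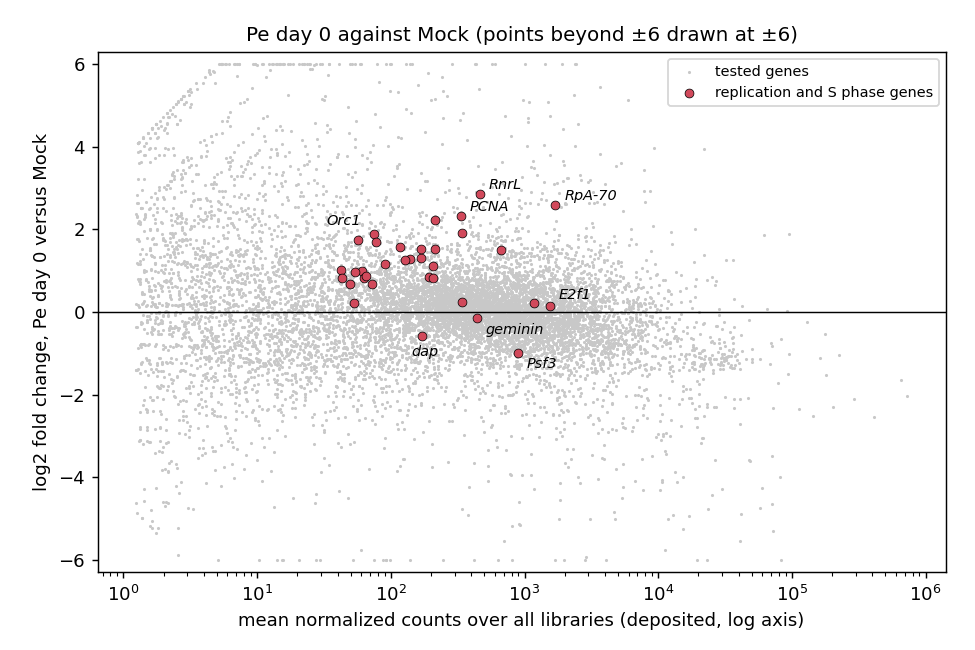
Deposited log2 fold change at Pe day 0 versus Mock (vertical axis) against the deposited mean normalized count over all libraries (horizontal log axis), for the tested genes (grey) and the 34 replication and S phase genes (red). Points past the axis are drawn at its edge. RnrL at 2.85, RpA-70 at 2.59 and PCNA at 2.32 lead the red points, and Psf3 at -0.998 is the lowest.

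All these folds are on the scale of the authors' size factors. Taking library totals as the scale moves every log2 fold change by 0.67 at Pe day 0, by 0.03 at Pe day 3 and by -0.64 between the days. On that scale 32 members were higher and 0 lower at Pe day 0, where 62.3% of all genes were called (53.4% higher and 8.97% lower), and the member median of 1.73 stood against 0.69 over all genes. The members called at Pe day 3 were still 2 higher and 0 lower, where 17.8% of genes were called (9.72% higher and 8.04% lower). Between the days 32 members were then lower and 1 higher, where 72.5% of all genes were called (63.1% lower and 9.36% higher). Estimated depth lay between 1.76e7 and 2.01e7 reads per library. Together the members took up an estimated 348 CPM (counts scaled to a common library total) in Mock, 1107 at Pe day 0 and 391 at Pe day 3. In whole tissue, more cells in S phase and more RNA per cell cannot be told apart. Estimated levels below are group means in normalized counts with their model SE, 2 libraries each. Values per library were not analysed here, so the spread between the 2 libraries of a group enters only through the SE.

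Origin recognition genes had low counts, and 3 of the 5 counted rose (5 of 5 with library totals). Of all tested genes 23.0% were higher at Pe day 0, and 53.4% with library totals. These shares also stand beside the Pe day 0 counts of each complex below. Orc1, the ATPase subunit that varies through the cell cycle, had an estimated 41 ± 8.9 normalized counts in Mock, 153 ± 28 at Pe day 0 and 30.2 ± 6.9 at Pe day 3. Only the Pe day 0 level stood apart. In the authors' deposited table its log2 fold change at Pe day 0 was 1.90 (SE 0.41, adjusted p = 1.85e-05), and the derived fall to Pe day 3 was -2.34 (SE 0.42, adjusted p = 1.87e-07). The other subunits moved less. The authors' deposited table called Orc2 (1.01, SE 0.42) and Orc4 (0.99, SE 0.39) higher as well. Orc5 (0.82, SE 0.40) and Orc6 (0.68, SE 0.38) did not pass there, with 95% intervals from 0.04 to 1.60 and from -0.06 to 1.42 that include a 2-fold rise. With library totals both were called higher, at 1.48 and 1.34, where the median of all genes was 0.69. Orc3, outside the count, stood at 1.00 (SE 0.30, adjusted p = 0.00235) at Pe day 0 and 0.58 (SE 0.31) at Pe day 3 in the authors' deposited table. The current annotation gives CG34315 the whole of its exon sequence on the same strand, so reads of the pair cannot be told apart.

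Of the loading factors, Cdc6 and dup rose and geminin did not pass. Cdc6, which recruits the helicase to origins, went from an estimated 41.4 ± 8.2 normalized counts in Mock to 80.9 ± 13.8 at Pe day 0 and 39.1 ± 7.8 at Pe day 3. The dup estimates were 149 ± 16, 268 ± 26 and 164 ± 17 in the same order. Both were higher at Pe day 0 in the authors' deposited table, Cdc6 by 0.97 (SE 0.38, adjusted p = 0.0245) and dup by 0.85 (SE 0.21, adjusted p = 0.000179). Both were lower again at Pe day 3 than at Pe day 0 in the derived test, at -1.05 (SE 0.38) and -0.71 (SE 0.21). Levels of geminin, the inhibitor of Dup, were estimated at 487 ± 48, 442 ± 43 and 390 ± 39 normalized counts. In the authors' deposited table geminin stood at -0.14 (SE 0.20) at Pe day 0. With library totals its sign turned and it was called higher at 0.53, where the median of all genes was 0.69. Per kilobase of exon, geminin was the highest of the 34 members in Mock (459 ± 46 normalized counts per kb).

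The Mcm genes moved as a block. All 7 were higher at Pe day 0 in the authors' deposited table, and all 7 were lower at Pe day 3 than at Pe day 0 in the derived test. The largest rise among the helicase subunits was that of Mcm5, with estimated levels of 69.8 ± 10.5, 208 ± 26 and 73.6 ± 10.9 normalized counts in Mock, Pe day 0 and Pe day 3. The authors' deposited table put it at 1.57 (SE 0.28, adjusted p = 1.56e-07), beside dpa, which encodes Mcm4, at 1.53 (SE 0.21, adjusted p = 2.00e-12) and Mcm7 at 1.53 (SE 0.23). Mcm2 (1.29, SE 0.24) and Mcm3 (1.30, SE 0.23) followed in the authors' deposited table. The smallest rise was that of Mcm6, from 156 ± 17 to 275 ± 26 normalized counts and back to 189 ± 20. Its log2 fold change was 0.82 (SE 0.21) in the authors' deposited table, with an interval from 0.42 to 1.23 that overlaps those of the other 5 subunits. Mcm10, which helps to activate the loaded helicase, went from 30.9 ± 6.3 to 104 ± 16 and 34.7 ± 6.8 normalized counts, a rise of 1.75 (SE 0.37) in the authors' deposited table.

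The 6 helicase subunits form a ring with 1 copy of each. Levels of their genes per exon length lay within 2.26-fold of each other in each group. In Mock they ran from 28.5 ± 4.3 (Mcm5) to 55.8 ± 6.0 (Mcm6) normalized counts per kb, a 1.96-fold range. At Pe day 0 the range was 1.56-fold, from 75.9 ± 8.2 (Mcm2) to 118 ± 11 (dpa), and at Pe day 3 it was 2.26-fold, from 30 ± 4.4 (Mcm5) to 67.7 ± 7.1 (Mcm6). Origin genes ran from 13 ± 2.8 (Orc1) to 38.8 ± 7.7 (Orc6) normalized counts per kb in Mock, a range that overlaps that of the helicase. Orc1 passed from the lowest of the 5 counted subunits in Mock to the middle of them at Pe day 0 (48.5 ± 9.0) and was the lowest again at Pe day 3 (9.57 ± 2.18). The annotation lists an antisense RNA over 81.7% of the exon bases of Mcm7, and without known use of strand its reads cannot be told apart from those of Mcm7.

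**Figure D2:**
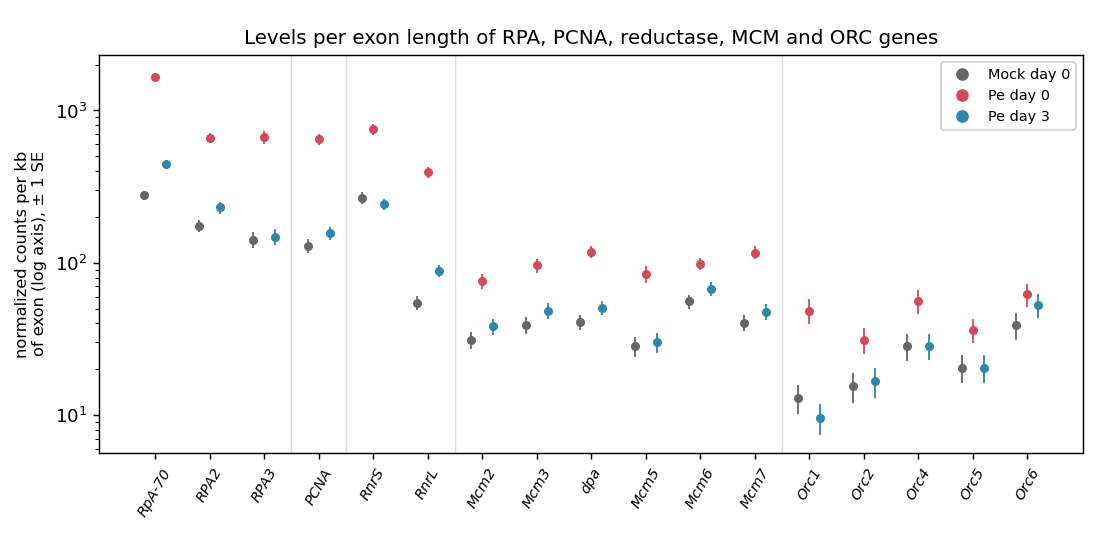
Estimated group means per kilobase of exon (vertical log axis, ± 1 model SE) for the RPA, PCNA, reductase, MCM helicase and ORC genes in Mock day 0 (grey), Pe day 0 (red) and Pe day 3 (blue). In each of these genes the red point is the highest of the 3, from 31.3 for Orc2 to 1665 for RpA-70.

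The GINS complex travels with the helicase at the fork. None of the 4 rose past the threshold at Pe day 0 in the authors' deposited table, and Psf3 fell. Psf1 stood at 0.23 (SE 0.38), Psf2 at 0.82 (SE 0.38, adjusted p = 0.0619) and Sld5 at 0.67 (SE 0.33, adjusted p = 0.0830) in the authors' deposited table. The intervals of Psf2 and Sld5 reach 1.56 and 1.31, past a 2-fold rise. With library totals Psf1, Psf2 and Sld5 were called higher, at 0.89, 1.49 and 1.34, where the median of all genes was 0.69.

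Psf3 was the reverse of the group. Its estimated level fell from 1005 ± 88 normalized counts in Mock to 503 ± 44 at Pe day 0 and was 1177 ± 102 at Pe day 3. The authors' deposited table gave -0.998 (SE 0.18, adjusted p = 1.42e-07) at Pe day 0, a call that library totals ended (-0.33), and the derived rise to Pe day 3 was 1.23 (SE 0.18, adjusted p = 5.13e-11). Per exon length it held 422 ± 37 normalized counts per kb in Mock, against 54.0 ± 10.6 to 73.6 ± 12.6 for the other GINS genes. Psf3 (X: 10383353 to 10385861, minus strand, BDGP6.54) shares 831 exon bases, 34.9% of its own, with the opposite-strand gene CG17841. CG17841 had more reads, with a mean of 5572 normalized counts, and its fold changes of -0.94 (SE 0.16) at Pe day 0 and 0.32 (SE 0.16) at Pe day 3 in the authors' deposited table lay close to those of Psf3 (-0.998 and 0.23). The part of CG17841 reads in the Psf3 values was not tested.

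PCNA, the sliding clamp, was among the strongest risers. Its estimated level was 139 ± 14 normalized counts in Mock, 693 ± 56 at Pe day 0 and 167 ± 16 at Pe day 3. The authors' deposited table gave a 5.00-fold rise at Pe day 0 (2.32, SE 0.19, adjusted p = 6.99e-34) and 0.27 (SE 0.20, adjusted p = 0.455) at Pe day 3. The clamp rose more than its loader. RfC3 (1.16, SE 0.30), RfC4 (1.12, SE 0.22) and RfC38 (1.27, SE 0.25), small subunits of the loader, rose in the authors' deposited table with intervals that end below the lower bound of PCNA (1.96). Gnf1, the large subunit, had estimated levels of 307 ± 26, 364 ± 28 and 359 ± 29 normalized counts and stood at 0.24 (SE 0.16) in the authors' deposited table, with an interval from -0.08 to 0.57 that excludes a 2-fold rise on that scale. With library totals Gnf1 was called higher, at 0.91, where the median of all genes was 0.69. RfC38 shares 25.2% of its exon bases with the opposite-strand gene Nup160, which stood at 0.77 (SE 0.16) at Pe day 0 in the authors' deposited table.

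The 3 RPA genes, whose products bind single-stranded DNA, all rose strongly. RpA-70, the large subunit, went from an estimated 592 ± 42 normalized counts in Mock to 3554 ± 225 at Pe day 0 and 953 ± 64 at Pe day 3. RPA2 went from 168 ± 16 to 638 ± 50 and 222 ± 20, and RPA3 from 95.7 ± 11.7 to 448 ± 43 and 100 ± 12. In the authors' deposited table the rises were 6.01-fold for RpA-70 (2.59, SE 0.14, adjusted p = 2.14e-78), 3.79-fold for RPA2 (1.92, SE 0.18) and 4.68-fold for RPA3 (2.23, SE 0.23). RpA-70 was still above Mock at Pe day 3 in the authors' deposited table (0.69, SE 0.14), where RPA2 was at 0.40 (SE 0.19, adjusted p = 0.141) and RPA3 at 0.06 (SE 0.25). Per exon length the large subunit had 1665 ± 105.2 normalized counts per kb at Pe day 0, beside 662 ± 52 for RPA2 and 665 ± 64 for RPA3.

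RpA-70 and Mcm2 are neighbours. They lie head to head on chromosome 3R, RpA-70 on the minus strand (8262120 to 8264451) and Mcm2 on the plus strand (8264970 to 8267924, BDGP6.54), with 518 bases between them. Their changes differed in size all the same, since the 95% interval of RpA-70 at Pe day 0 (2.32 to 2.85) lies above that of Mcm2 (0.81 to 1.77). With this pair included, the members were spread over 2R (10), 2L (8), 3R (8), 3L (4) and X (4). Of the 34 members 27 had at most 4 exon blocks, 79.4% against 59.0% of the 10312 tested genes matched to the annotation.

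Both subunits of ribonucleotide reductase rose, by unequal amounts. RnrL, the large subunit, had estimated levels of 141 ± 15 normalized counts in Mock, 1018 ± 83 at Pe day 0 and 229 ± 22 at Pe day 3. RnrS, the small subunit, had 427 ± 37, 1202 ± 97 and 386 ± 34. The rise of RnrL, 7.23-fold in the authors' deposited table (2.85, SE 0.19, adjusted p = 1.98e-49), was the largest of any member, and that of RnrS was 2.82-fold (1.49, SE 0.17, adjusted p = 4.11e-17). Their 95% intervals, 2.48 to 3.23 and 1.16 to 1.83, do not overlap. Per exon length RnrS exceeded RnrL 4.90-fold in Mock, 1.91-fold at Pe day 0 and 2.73-fold at Pe day 3. RnrL was also the other member still called above Mock at Pe day 3 in the authors' deposited table (0.70, SE 0.20, adjusted p = 0.00514), where RnrS stood at -0.15 (SE 0.18).

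Among the regulators of S phase entry the kinase subunits rose and the transcription factor did not. CycE, the cyclin, went from an estimated 45.0 ± 8.3 normalized counts in Mock to 146 ± 22 at Pe day 0 and 40.6 ± 7.6 at Pe day 3. Its rise was 3.25-fold in the authors' deposited table (1.70, SE 0.34, adjusted p = 3.59e-06) and its derived fall to Pe day 3 was -1.85 (SE 0.35). Cdk2, the kinase, stood at 0.87 (SE 0.33, adjusted p = 0.0224) in the authors' deposited table. The opposite-strand gene CG17267, which shares 43.9% of the exon bases of Cdk2, had a deposited mean of 0. The inhibitor of the pair, dap, a gene of the CIP/KIP family, went the other way, from 201 ± 24 to 134 ± 16 and 182 ± 22 normalized counts. Its fall of -0.58 (SE 0.24, adjusted p = 0.0376) in the authors' deposited table was lost with library totals, where it stood at 0.09.

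E2f1 and Dp, whose products form the activating E2F factor, did not pass at either day. E2f1 had estimated levels of 1512 ± 96, 1673 ± 104 and 1446 ± 92 normalized counts in Mock, Pe day 0 and Pe day 3, and Dp 1097 ± 66, 1278 ± 74 and 1133 ± 68. In the authors' deposited table E2f1 stood at 0.15 (SE 0.13, adjusted p = 0.367) and Dp at 0.22 (SE 0.12, adjusted p = 0.126) at Pe day 0. Their intervals end at 0.40 and 0.46, so on that scale a 2-fold rise lies outside them. With library totals both were called higher, at 0.81 and 0.89, where the median of all genes was 0.69. The annotation places the microRNA genes mir-11 and mir-998 within E2f1 and mir-995 within Cdk2, on the same strand and outside their exons.

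**Figure D3:**
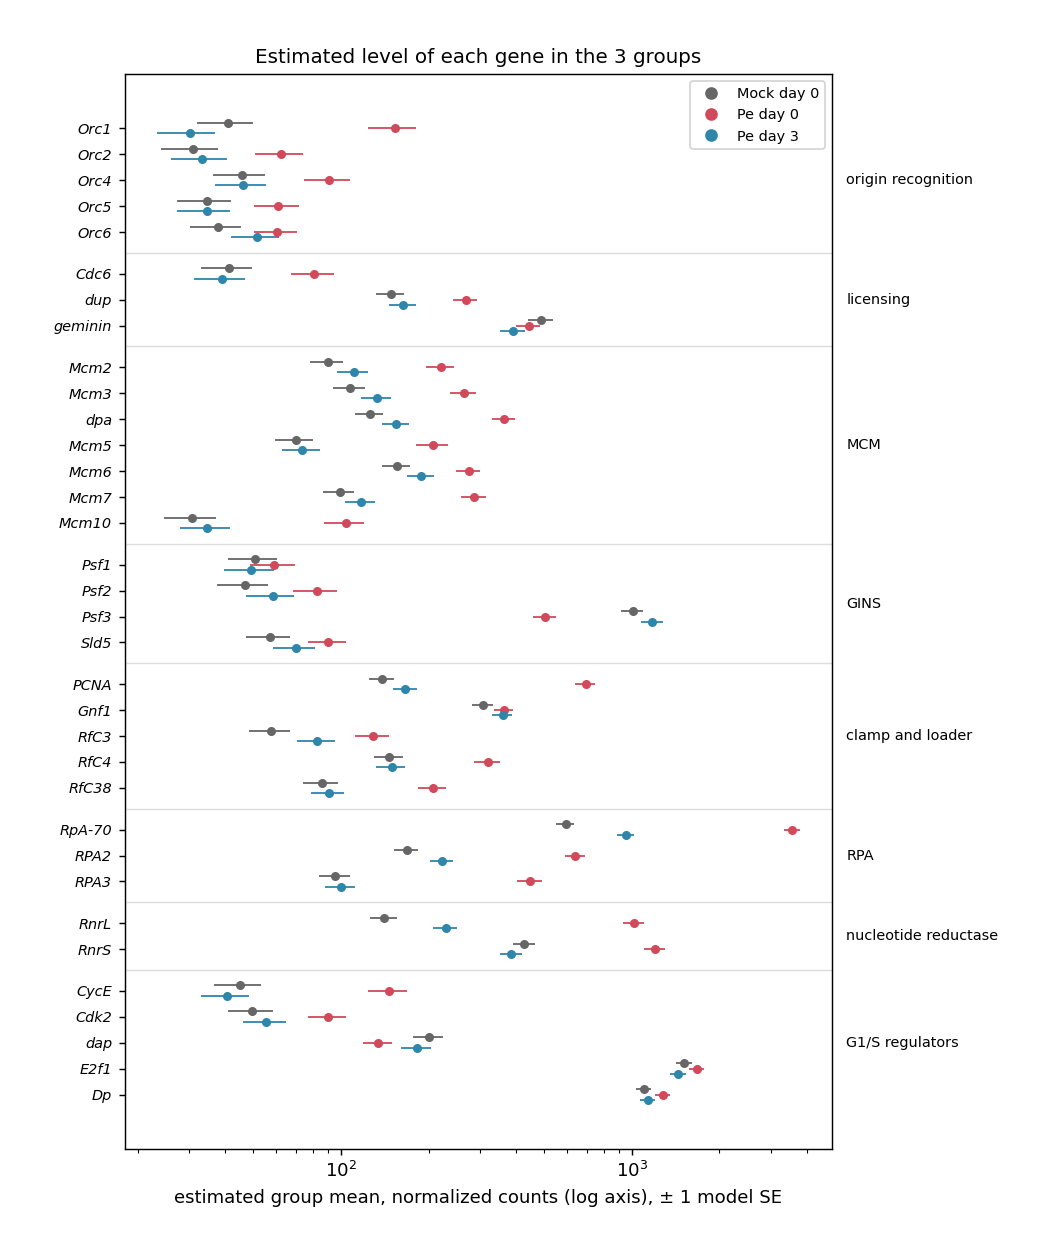
Estimated group mean of each of the 34 genes in normalized counts (horizontal log axis, ± 1 model SE) in Mock day 0 (grey), Pe day 0 (red) and Pe day 3 (blue), arranged by complex. The Pe day 0 point stands apart to the right for RPA, PCNA, the reductase and the MCM genes, and to the left for Psf3 (503 against 1005 in Mock).

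Precision differed with abundance. The 13 members with a mean under 100 normalized counts had a median SE of 0.38 at Pe day 0, and 8 of them were higher and 5 not called in the authors' deposited table. The 21 more abundant members had a median SE of 0.21, with 15 higher, 2 lower and 4 not called in the authors' deposited table. Of the 9 members not called at Pe day 0, Orc5, Orc6, Psf2 and Sld5 had intervals that include a 2-fold rise. The other 5 were Psf1, geminin, Gnf1, E2f1 and Dp.

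At Pe day 3 the members' median log2 fold change against Mock was 0.15, with 0.01 over all tested genes in the authors' deposited table. The 95% interval lay within a 2-fold change either way for 29 of 34 members. It reached past 2-fold for Orc1, which was at -0.44 (interval -1.33 to 0.45), and for Orc6, Psf2, RfC3 and RnrL on the higher side. Of the 23 members that rose at Pe day 0, 20 were lower at Pe day 3 than at Pe day 0 in the derived test. The other 3 were Orc2 (-0.91, adjusted p = 0.0542), RfC3 (-0.64, adjusted p = 0.0504) and Cdk2 (-0.71, adjusted p = 0.0584), all of which were called with library totals. Both comparisons with Mock share the Mock libraries, so an error in the Mock level would move both in the same direction.

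**Figure D4:**
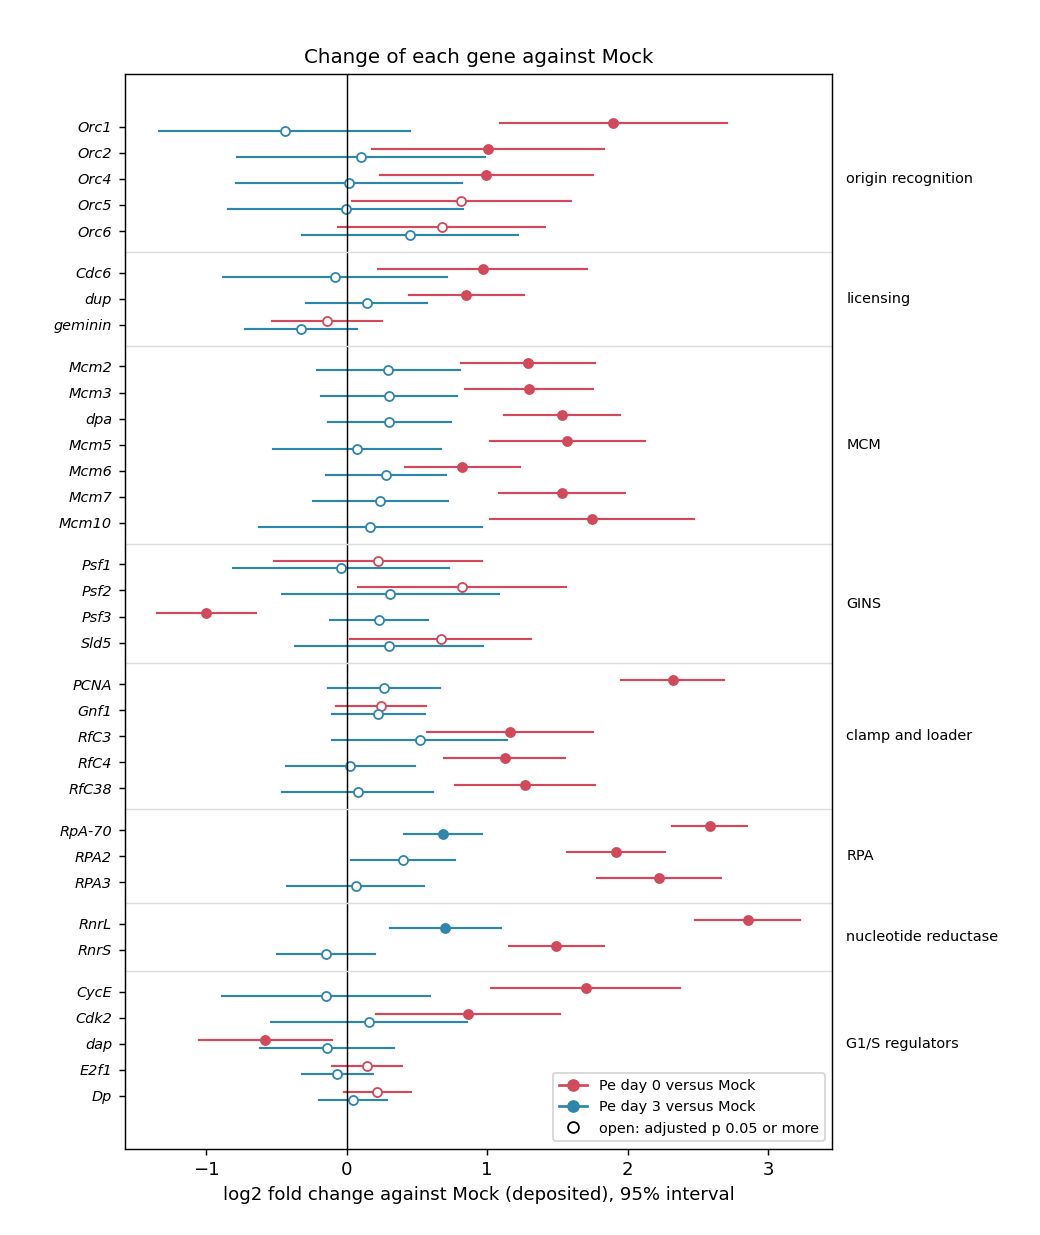
Deposited log2 fold change of each gene against Mock (horizontal axis) at Pe day 0 (red) and Pe day 3 (blue) with its 95% interval. Open points missed an adjusted p of 0.05. At Pe day 3 only RpA-70 (0.69) and RnrL (0.70) are filled.

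Other genes of replication moved in the same direction as the members. Over 5 further lists, 35 of 54 tested genes (64.8%) were higher at Pe day 0 and 1 lower in the authors' deposited table. The median of the 54 was 0.99, and of all tested genes 23.0% were higher and 23.6% lower. At Pe day 3 the authors' deposited table had 5 of 53 (9.43%) higher and 1 lower, beside 8.75% and 8.92% of all genes. Between the days the derived test had 33 lower and 1 higher, beside 25.3% and 27.4% of all genes. With library totals 52 of 54 (96.3%) were higher at Pe day 0 and 0 lower, beside 53.4% and 8.97% of all genes. These shares of all genes also stand beside the counts of each list below.

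Polymerases, Okazaki fragment enzymes and topoisomerases were higher in 10 of 12 cases at Pe day 0 and lower in 0. Top2, the type II topoisomerase, rose from an estimated 488 ± 38 to 1281 ± 91 normalized counts (1.39, SE 0.15 in the authors' deposited table). DNApol-alpha60, the large subunit of primase, rose from 22.0 ± 4.9 to 122 ± 19 normalized counts (2.48, SE 0.40 in the authors' deposited table). None of the 12 passed in either direction at Pe day 3.

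Genes of origin firing and the fork were higher in 8 of 11 cases at Pe day 0 and lower in 0. The clearest was cutlet, which encodes a subunit of an alternative clamp loader, at 9.06-fold in the authors' deposited table (3.18, SE 0.29). For Cdc7, the kinase that fires licensed origins, the authors' deposited table gave a 3.56-fold rise (1.83, SE 0.21). Claspin and timeout, genes for fork protection factors, were still above Mock at Pe day 3 in the authors' deposited table, at 0.71 (SE 0.24, adjusted p = 0.0235) and 0.84 (SE 0.32, adjusted p = 0.0438).

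Replication-linked chromatin genes were higher in 7 of 8 cases at Pe day 0. Both subunits of the histone chaperone FACT rose in the authors' deposited table, Ssrp by 8.54-fold (3.10, SE 0.14) and dre4 by 2.59-fold (1.37, SE 0.13). Ssrp was the 1 gene of this list called at Pe day 3 in the authors' deposited table (0.38, SE 0.14, adjusted p = 0.0455). In the nucleotide supply list 3 of 4 genes were higher and 0 lower at Pe day 0. The deoxynucleoside kinase gene dnk (2.10, SE 0.19) and the thymidylate synthase gene Ts (2.09, SE 0.36) rose in the authors' deposited table. The nucleoside diphosphate kinase gene awd was lower at Pe day 3 by the authors' deposited table (-0.45, SE 0.15, adjusted p = 0.0148).

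Of 19 further G1/S regulators 7 (36.8%) were higher and 1 lower at Pe day 0 in the authors' deposited table. The median was 0.41, and 23.0% of all tested genes were higher there. Taking library totals, 18 of the 19 passed as higher and 0 as lower (median 1.07). Skp2 (1.65, SE 0.19) and Cul1 (0.76, SE 0.12), parts of the SCF ubiquitin ligase, rose in the authors' deposited table and were still higher at Pe day 3 (0.62, SE 0.20, and 0.33, SE 0.12). Myb, a subunit of the dREAM complex, was lower in the authors' deposited table (-0.36, SE 0.14). With library totals Myb was called higher (0.30), where the median of all genes was 0.69.

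**Figure D5:**
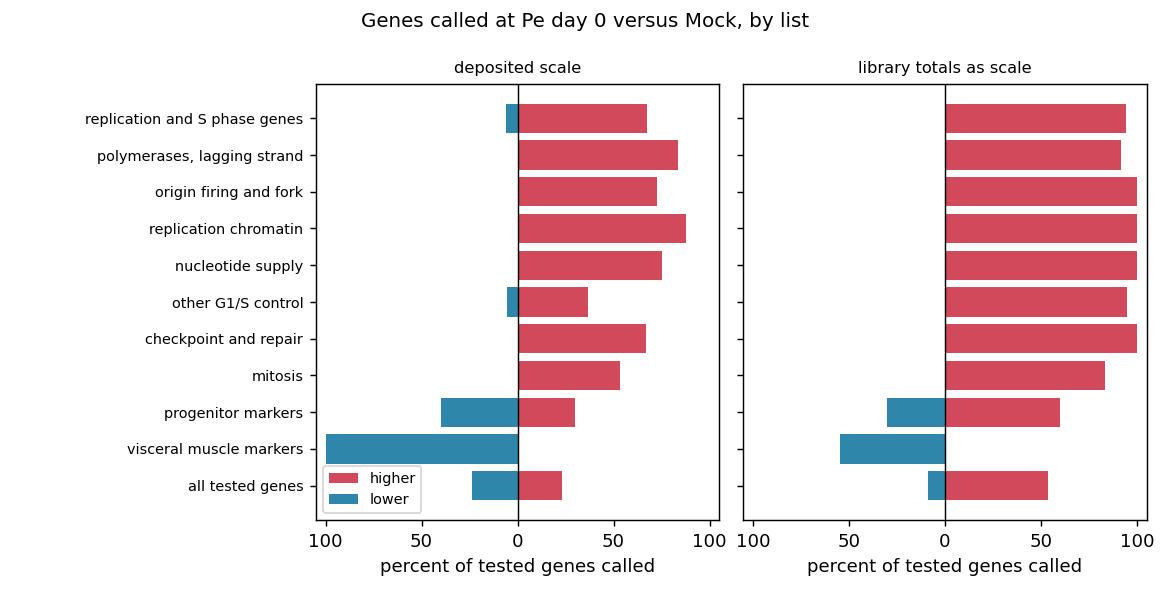
Percent of tested genes called at Pe day 0 versus Mock, higher in red to the right and lower in blue to the left. The panels use the deposited scale and library totals as the scale. Bars stand for the members, the further replication lists, checkpoint and repair, mitosis, progenitor and visceral muscle markers, and all tested genes. The other marker lists are not drawn. The 34 members have 67.6% higher on the deposited scale, beside 23.0% of all tested genes.

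Markers of the cell types present were read on the same samples. The progenitor list split, with 3 of 10 higher and 4 lower at Pe day 0 in the authors' deposited table, and 6 higher and 3 lower with library totals. The Notch ligand gene Dl (1.64, SE 0.27) and the transcription factor gene Sox21a (1.18, SE 0.20) rose in the authors' deposited table, while esg (-1.25, SE 0.18) and mira (-1.76, SE 0.15) fell. The summed level of this list was an estimated 134 CPM in Mock, 153 at Pe day 0 and 145 at Pe day 3. In normalized counts, the scale of the deposited folds, the sum was 2982, 2158 and 3164, lowest at Pe day 0. Visceral muscle markers were lower in 11 of 11 cases (6 with library totals) at a median of -1.12, and summed to 621, 431 and 651 CPM. Enteroendocrine markers were lower in 7 of 9 cases, and summed to 576, 381 and 662 CPM. With library totals 2 of the 9 were higher and 2 lower. Of 9 enterocyte markers 4 passed as higher and 5 as lower (4 and 3 by library totals), and the list summed to 20732, 14144 and 34501 CPM. This sum rests mainly on the protease genes Jon65Aiv and betaTry, with deposited means of 293085 and 78115 normalized counts. In the authors' deposited table both fell at Pe day 0 (-2.12 and -1.73) and were higher at Pe day 3 (0.80 and 0.75). At Pe day 0 nub, mesh, Ssk and Tsp2A were higher, and Myo31DF, Myo61F and LManI were also lower. At Pe day 3 the authors' deposited table had 5 of 9 enterocyte and 5 of 9 enteroendocrine markers higher and 0 lower. It called 0 progenitor and 0 visceral muscle markers there, beside 8.75% of all genes higher and 8.92% lower. Haemocyte markers had 1 higher and 4 lower of 9 tested at Pe day 0, and 2 higher and 2 lower with library totals. The list summed to 131, 139 and 143 CPM, but to 2921, 1950 and 3130 normalized counts, lowest at Pe day 0. The haemocyte sum rests mainly on crq, with a deposited mean of 1749 normalized counts. In the authors' deposited table crq was lower at Pe day 0 (-0.29) and higher at Pe day 3 (0.41), where srp was lower (-0.63).

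Ovary and germline tissue is rich in replication transcripts, so its markers were also listed. Of 17 tested genes 1 was higher (exu) and 2 lower (orb and yl) at Pe day 0 in the authors' deposited table, at a median of -0.59. By library totals 4 passed as higher (exu, aub, otu and grk) and 0 as lower (median 0.08). The list summed to 24.5, 53.9 and 23.6 CPM in Mock, Pe day 0 and Pe day 3. Of the list's genes exu, which other tissues also express, supplied an estimated 201, 485 and 221 normalized counts of list sums of 547, 758 and 517. The germline genes went both ways on few reads. The estimates for vas were 11, 2.8 and 5.8 normalized counts and for nos 7.3, 1.4 and 5.0, lowest at Pe day 0. Those for bgcn were 4.3, 11.2 and 4.1, for aub 12.4, 22.9 and 8.2, for otu 29.2, 48.6 and 31.2, and for grk 30.1, 52.5 and 47.6, highest at Pe day 0. These 6 genes did not pass at Pe day 0 in the authors' deposited table. The part of shifts in cell makeup in the rise of the replication genes was not tested.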

How the data were processed

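Nothing in the labels says that a group's 2 libraries came from separate dissections, so the p-values reflect the spread of these libraries alone, which may be technical. Per the labels' protocols, an Illumina TruSeq kit was used. DESeq2 1.22.0 is listed in the submitters' processing notes, as are Salmon 0.11.3, fastp 0.19.5, CASAVA 1.8 and the build BDGP6. Options, annotation release and strand setting: not given in the sources used here. Per the file headers, the deposited table holds a mean signal over all libraries (counts divided by size factors), and for each comparison with Mock a log2 fold change, its standard error and Wald statistic (deposited as scores), the p-value, raw and adjusted, all used here as deposited. Benjamini-Hochberg adjustment of the raw values over 10393 genes at day 0 and 8316 at day 3 returns the deposited adjusted ones.

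Counts per library had been planned for. In their place, size factors (0.788 to 1.43) came from genes with a single read, group means from the deposited mean and both fold changes, and dispersions from the deposited standard errors (ratio of both solutions 0.988 to 1.02 in the central 98% of genes). Pe day 3 against Pe day 0 used the standard error without the variance shared through Mock, 2-sided normal p-values and Benjamini-Hochberg adjustment over 8316 genes, checked on simulated data. Intervals are 95% normal intervals and cover model error only. Depth (1.76e7 to 2.01e7 reads) is estimated.

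Members and lists were chosen with earlier results of these data known. 1 gene of the nucleotide supply list is not reported here and was left out of the list counts. In each further gene list the 2 called genes with the smallest deposited p in each direction, in each comparison with Mock, were named. Marker genes (Dl, Sox21a, esg, mira and those of enterocytes, haemocytes and the germline) and the overlapping genes were chosen after their values were seen. Positions and exon lengths come from Ensembl BDGP6.54, with 31 members matched by gene ID and 3 by symbol. Python 3.11.15, numpy 2.4.6, pandas 2.3.3 and scipy 1.17.1 were used. Alternatives were library totals, an adjusted p of 0.01, no filter on low means, at least 5 CPM, and for the days the standard error that ignores sharing.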

Additional observations from a re-analysis of the deposited data

How the results depend on the processing

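Library totals had the widest effect, since they move every fold change by the same amount. Members lower at Pe day 0 went from 2 to 0 with library totals and to 1 at an adjusted p of 0.01, and between the days 33 members were called with library totals, 32 of them lower, against 21 and 20. Turned directions with library totals were looked up only among the members and the genes named by smallest deposited p. At Pe day 0 they were those of geminin (0.53), dap (0.089), Myb (0.30) and awd (0.37). At Pe day 3 they were those of Orc5 (0.023) and Myb (0.019), and between the days those of dap (-0.20) and Myb (-0.28). At an adjusted p of 0.01 the members lost at Pe day 0 were Orc2, Orc4, Cdc6, Cdk2 and dap, leaving 20 of 25 calls. The standard error that ignores the shared Mock left 17 of 21 calls between the days, without Orc4, Cdc6, dup and Mcm6. With at least 5 CPM 30 members were tested at Pe day 0, of which 25 were called, and Orc2 was lost and Psf2 gained. Without a filter on low means the same 25, 2 and 21 members were called. For the alternatives other than library totals the share of all genes called was not computed. RpA-70 and RnrL were called at Pe day 3 under each of the 4 alternatives run there. The named genes outside the members were less stable at Pe day 3. At an adjusted p of 0.01, 7 of them lost their call, namely Claspin, timeout, Skp2, Cul1, Ssrp, mre11 and awd. Only p53 and Klp10A kept theirs. Without a filter on low means 3 of the named genes lost their call. Leaving out single libraries was not run, because the fits used values per group. No paired analysis was possible because the table gives no values per library. Depth limits the 13 members with a mean under 100 normalized counts, whose median SE at Pe day 0 was 0.38, against 0.21 for the other 21.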

Other observations

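Genes of the S phase checkpoint and of double-strand break repair were higher in 10 of 15 cases at Pe day 0 and lower in 0. The median was 1.05, and 15 were higher with library totals. Of all tested genes 23.0% were higher, and 53.4% with library totals. In the authors' deposited table p53, the gene of the damage-responsive transcription factor, rose 9.96-fold (3.32, SE 0.13), from an estimated 297 ± 21 normalized counts in Mock to 2954 ± 165 at Pe day 0 and 445 ± 29 at Pe day 3. The authors' deposited table had nbs, a gene of the MRN complex that binds broken ends, at 6.37-fold (2.67, SE 0.18), and mre11, of the same complex, at 2.29-fold (1.19, SE 0.18). At Pe day 3 p53 (0.58, SE 0.14) and mre11 (0.50, SE 0.18) were still above Mock in the authors' deposited table. They were among 3 of 15 genes called higher there, with 0 lower, beside 8.75% and 8.92% of all genes.

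Mitotic genes were higher in 16 of 30 cases at Pe day 0 and lower in 0. The higher share was 53.3%, against 67.6% of the replication and S phase genes and 23.0% of all tested genes. The median was 1.09, against 1.07 for the replication and S phase genes. With library totals 25 of the 30 were higher (83.3% against 94.1%) and 0 lower, where 53.4% of all genes were higher. The difference between the lists was not tested. The kinesin gene Klp10A (1.47, SE 0.12) and the midzone gene feo (2.15, SE 0.35) had the smallest p in the authors' deposited table. The summed level of the mitotic list was an estimated 110 CPM in Mock, 367 at Pe day 0 and 135 at Pe day 3. Of 26 mitotic genes tested at Pe day 3 the authors' deposited table had 1 higher, Klp10A (0.43, SE 0.12), and 0 lower.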
